A study of Mus musculus with 868 samples.

Results

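Asenapine, an antipsychotic drug, was compared across 24 mouse tissues with 4 other drugs whose libraries had similar expression profiles: the antipsychotics lurasidone and olanzapine, and the bisphosphonates alendronate and risedronate, which act on bone. The comparison used every library labelled with 1 of these 5 drugs, 242 of the 868 in the series. Of these, 50 were asenapine libraries, 2 per tissue and 4 in brain, and 192 were reference libraries, 8 per tissue. All mice were C57BL/6N, tissues were flash frozen after removal, and poly(A) 3′ ends were sequenced. The labels give no dose, duration, vehicle, age or sex for these drugs. None of the 242 libraries is labelled as a control, and the 5 drugs were put in 1 set from their expression profiles, not from a label. Every difference below is therefore asenapine against other drugs, 2 of them of its own class, and an effect that asenapine shares with them is partly subtracted.

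Asenapine blocks dopamine, serotonin, histamine and adrenergic receptors. Glucocorticoids, the steroid hormones of the stress axis, act in nearly every tissue through the glucocorticoid receptor, a transcription factor that raises a common group of genes, among them Fkbp5, Per1, Sgk1, Tsc22d3 and the metallothioneins. Cells also adjust to temperature. Heat and unfolded proteins activate the heat shock factor HSF1, which raises chaperone genes, while mild cooling raises the RNA-binding proteins CIRBP and RBM3.

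Total counts ran from 549551 to 1877620 in asenapine libraries (median 737172) and from 469166 to 1872829 in reference libraries (median 704922). Of 100 marker genes of the labelled tissues, 91 were highest in their own tissue and all 100 lay among its 3 highest. None of the 1101 library pairs compared was identical. In every tissue but brain and pituitary gland the asenapine libraries carry replicate numbers 3 and 4 and the reference libraries 1 and 2. The number and the drug cannot be told apart there. Library composition also moved with asenapine. The 45S ribosomal RNA gene Rn45s took a median of 4.01% of counts in asenapine libraries and 7.0 to 8.15% with the 4 other drugs. Called genes also differed in transcript length, with a median of 2613 bases for higher genes, 4925 for lower genes and 3619 for all genes. Of genes in the shortest length quartile 16.5% were called higher and 5.11% lower, and of the longest quartile 3.52% and 24.5%. The part of RNA composition or length in the results below was not tested.

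The first question was which genes moved the same way in most tissues. Counts were scaled to the library total adjusted by TMM factors (CPM). They were then taken to log2, centred on the mean of the same libraries within each tissue, and averaged over tissues. This gave 10 values per gene, 1 for each drug and replicate number, with asenapine 3 and 4 against 8 reference values (23 tissues, without the pituitary gland). Of 8003 genes, 759 were higher with asenapine (9.48%) and 1051 lower (13.1%), 22.6% in all (limma, Benjamini-Hochberg adjusted p under 0.05). Both asenapine values lay outside the 8 reference values for 1766 of the 1810 called genes, beside 36.6% of all genes. The sign was the same in every tissue tested for 351 of the 1810 called genes, 89 higher and 262 lower, beside 372 of all 8003 genes. Leaving out asenapine 3 left 98 calls and leaving out asenapine 4 left 125, so the count rests on both. In single tissues, 896 of the 1810 genes passed with the same sign in at least 1 tissue (edgeR quasi-likelihood test, Benjamini-Hochberg adjusted). Of all 8003 genes, 1617 were called in at least 1 tissue, in either direction. Of the 1810 genes, 101 passed in at least 5 tissues and 17 in at least 10. Counted as gene and tissue pairs, which is another measure, 0.803% of all pairs were called higher and 0.932% lower. The shared test and the tissue tests use mostly the same libraries. The heat map of named genes shows these tissue values. In bulk tissue, fewer cells of a type and less RNA per cell cannot be told apart.

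**Figure D1:**
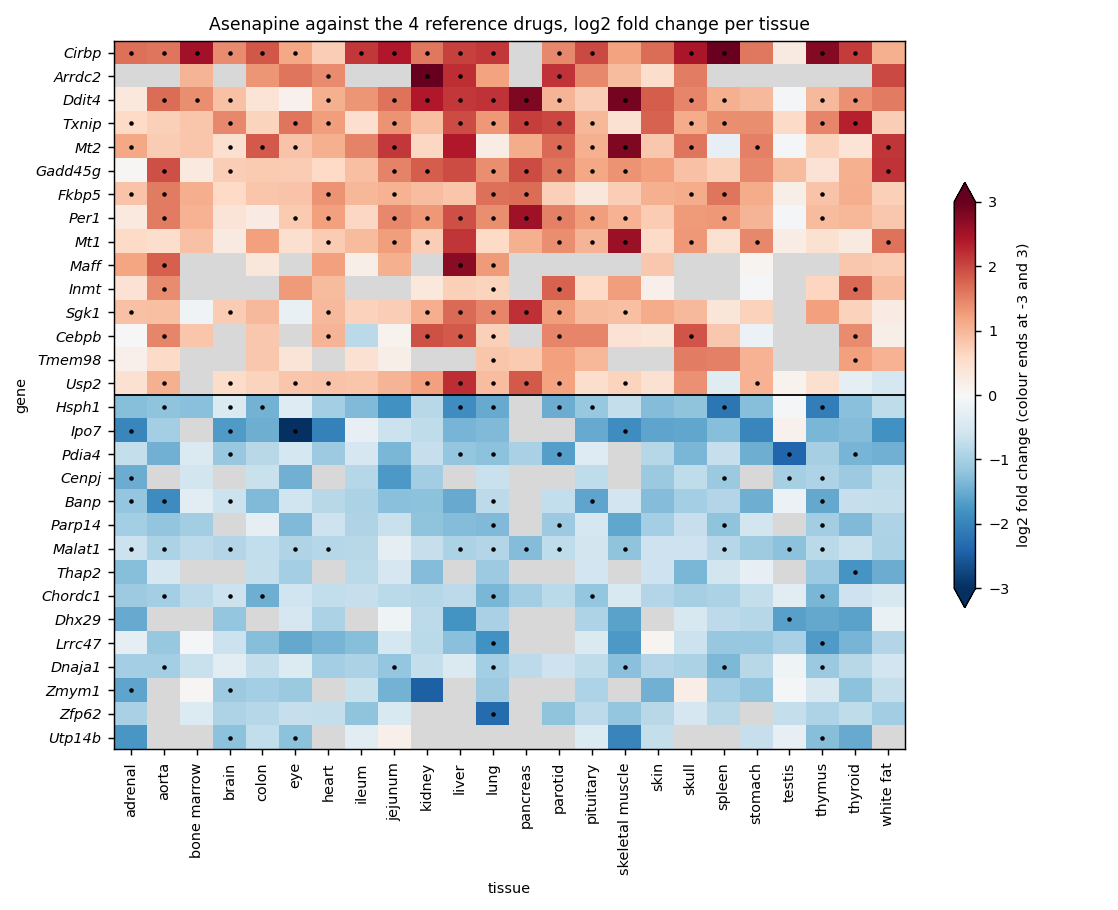
Log2 fold change of asenapine against the 4 reference drugs in each tissue (columns) for the 15 genes named in each direction (rows); dots mark edgeR adjusted p under 0.05 within the tissue, and grey marks a gene under the count filter. Cirbp was called in 17 tissues, Ddit4 in 15 and Txnip in 14, and the testis column is pale for most higher genes.

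Cirbp, which encodes the cold-inducible RNA-binding protein, had the largest difference of all higher genes that met the naming rule and the most tissues called. Its replicate-level values were 1.48 and 1.21 with asenapine, against -0.65 to 0.07 (median -0.33) for the 8 reference values. Both asenapine values were above all others. The log2 difference was 1.68 ± 0.14 (SE, 2 against 8 values, limma adjusted p = 0.000111), and it was 1.55 without asenapine 3 and 1.82 without asenapine 4 (limma adjusted p = 0.0100 and 0.00340). Cirbp (mm10 chr10:80165985-80172786, protein-coding, plus strand) was higher in 23 of 23 tissues and past the edgeR threshold in 17. In 21 tissues all asenapine libraries were above all reference libraries, beside 5.68% of all gene and tissue pairs. In spleen it stood at 173 and 193 CPM with asenapine and at 13.7 to 40.3 CPM (median 23.6) in the reference libraries, a log2 fold change of 2.96 ± 0.21. In thymus the values were 170 and 176 CPM against 11.3 to 43.4 (median 23.3). In lung they were 93.1 and 93.3 CPM against 14.3 to 29.5 (median 17.6), and in liver 23.4 and 24.8 CPM against 3.35 to 8.51 (median 4.68). The exceptions to the separation were heart, 46.8 and 73.0 CPM against 17.8 to 47.5, and testis, 70.7 and 95.9 CPM against 46.9 to 90.4. Rbm3, the other cold-inducible RNA-binding protein of the list, named after its values were seen, had a difference of 0.26 ± 0.16 (limma adjusted p = 0.258), with asenapine values of 0.23 and 0.19 inside the reference range of -0.53 to 0.29.

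**Figure D2:**
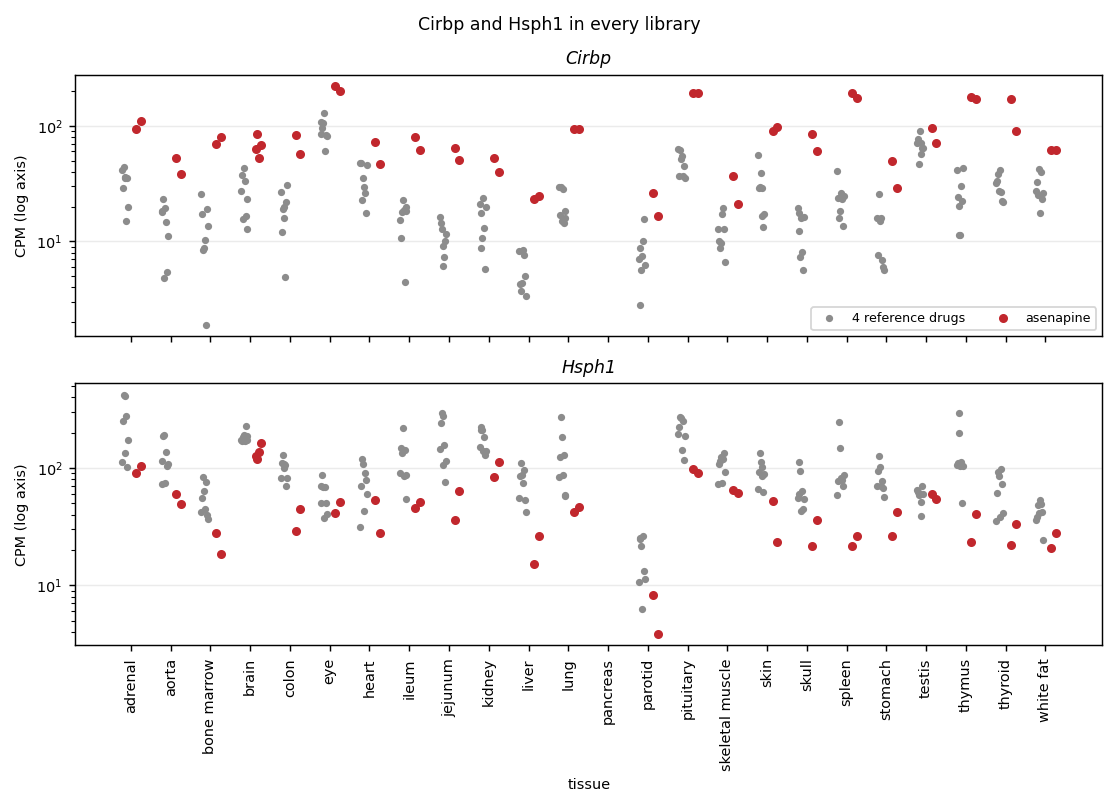
CPM on a log axis of Cirbp (upper) and the chaperone gene Hsph1 (lower) in every library by tissue; red points are asenapine and grey points the 4 reference drugs. The Cirbp points of asenapine are above every reference point in 21 of 23 tissues, and those of Hsph1 below every reference point in 17 of 23; neither gene passed the filter in pancreas.

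Genes that glucocorticoids induce were higher together. Of 14 genes on a glucocorticoid list, 11 passed the count filter in enough tissues. Of these 10 were higher and none lower, beside 9.48% higher and 13.1% lower of all genes. Their median log2 difference was 0.89, beside 0.01 over all genes. The list's median was above 0 in 23 of 24 tissues, with testis at -0.01, and highest in pancreas at 1.76. Without either asenapine value in turn, 7 of the 10 kept an adjusted p under 0.05 both times (Ddit4, Fkbp5, Klf9, Mt1, Mt2, Per1 and Sgk1). Fkbp5, a co-chaperone that dampens the glucocorticoid receptor, had asenapine values of 0.77 and 0.89 and reference values of -0.73 to 0.07 (median -0.18). Its difference was 1.04 ± 0.16 (limma adjusted p = 0.00146). Fkbp5 was higher in 24 of 24 tissues, past the threshold in 9, and fully separated in 20. In lung it stood at 173 and 213 CPM against 24.3 to 90.1 (median 62.1), and in aorta at 130 and 159 CPM against 24.6 to 64.6 (median 54.2).

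Per1, a clock repressor that glucocorticoids also induce, had asenapine values of 0.84 and 0.80 against -0.54 to 0.13 (median -0.23), a difference of 1.03 ± 0.15 (limma adjusted p = 0.00122). It was higher in 23 of 24 tissues and called in 13. Ddit4 encodes REDD1, an inhibitor of mTORC1. Its values were 1.20 and 1.01 against -0.80 to 0.21 (median -0.28), a difference of 1.38 ± 0.19 (limma adjusted p = 0.00122), and it was called in 15 tissues. In skeletal muscle Ddit4 reached 346 and 514 CPM against 21.6 to 87.9 (median 57.1), a log2 fold change of 2.88 ± 0.22. The metallothioneins Mt1 and Mt2, which bind zinc and copper, are neighbours on chromosome 8. Mt2 had asenapine values of 0.98 and 1.04 against -0.81 to 0.26 (median -0.25), a difference of 1.26 ± 0.19. Mt1 had 0.77 and 0.84 against -0.64 to 0.10 (median -0.15), a difference of 1.0 ± 0.15. In skeletal muscle Mt2 stood at 362 and 366 CPM against 10.2 to 82.2 (median 53.2). In spleen Mt2 was at 35.8 and 39.2 CPM, inside the reference range of 22.5 to 69.7.

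Sgk1, a kinase that regulates ion channels and transporters, had 0.77 and 0.65 against -0.48 to 0.12 (median -0.17), a difference of 0.89 ± 0.12 (limma adjusted p = 0.00119). It was higher in 21 of 23 tissues and called in 9, with its largest fold change in pancreas, 83.7 and 89.7 CPM against 9.69 to 37.4 (median 19.5). The smaller members were Zbtb16 (0.76 ± 0.21), Errfi1 (0.58 ± 0.13), Klf9 (0.51 ± 0.08) and Tsc22d3 (0.45 ± 0.15, limma adjusted p = 0.0437), which encodes the glucocorticoid-induced leucine zipper GILZ. The cell cycle inhibitor gene Cdkn1a, the remaining tested member, did not pass at 0.61 ± 0.24 (limma adjusted p = 0.0748). Its asenapine values were 0.66 and 0.32, and the reference range ended at 0.33.

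**Figure D3:**
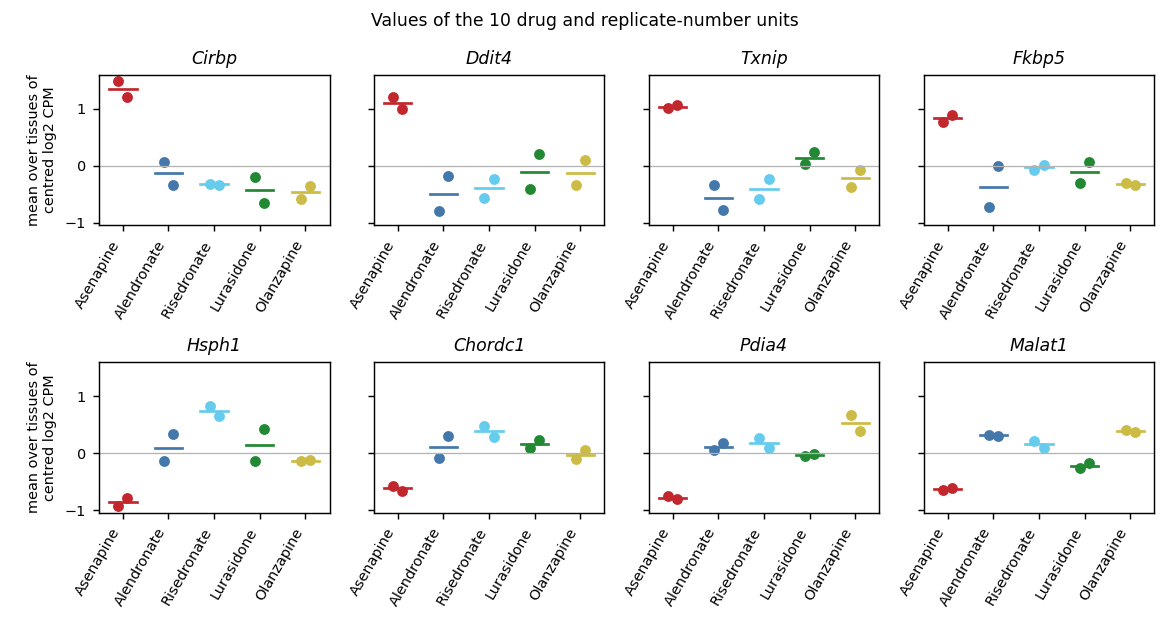
Replicate-level values (mean over tissues of centred log2 CPM) of 8 genes for each drug; points are the 2 replicate numbers of a drug and bars their mean. Asenapine is highest in the upper row (Cirbp, Ddit4, Txnip, Fkbp5) and lowest in the lower row (Hsph1, Chordc1, Pdia4, Malat1), as the naming rule requires, and the 4 reference drugs differ among themselves by less than from asenapine for Cirbp.

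The other named higher genes came from several functions. Txnip, an inhibitor of thioredoxin and of glucose uptake, had 1.02 and 1.06 against -0.77 to 0.25 (median -0.29), a difference of 1.30 ± 0.19 (limma adjusted p = 0.00130). It was higher in 24 of 24 tissues, called in 14 and fully separated in 21, and in thyroid gland it reached 4212 and 5509 CPM against 570 to 1612 (median 962). Arrdc2, an arrestin-domain gene of the same family as Txnip, was higher by 1.45 ± 0.18 in 13 of 13 tissues. In kidney it stood at 45.1 and 63.6 CPM against 0 to 10.2 (median 3.47). Gadd45g, a growth arrest gene, differed by 1.20 ± 0.22 and was higher in 24 of 24 tissues, and it missed the threshold without asenapine 3 and without asenapine 4 (limma adjusted p = 0.0775 and 0.0570). Lower on the ranking were the transcription factors Maff (0.94) and Cebpb (0.82), the methyltransferase gene Inmt (0.89), the membrane protein gene Tmem98 (0.81) and the deubiquitinase gene Usp2 (0.80). Maff, Cebpb and Inmt lost the call without either asenapine value, and Tmem98 and Usp2 without asenapine 3. Other genes outside the naming rule, chosen after their values were seen, were each called in at least 10 tissues. Higher were Klf13 (0.75 ± 0.13), Snhg9 (0.75 ± 0.09), the NF-kappa-B inhibitor gene Nfkbia (0.65 ± 0.09) and the glutamine synthetase gene Glul (0.62 ± 0.07). Lower were Fubp1 (-0.71 ± 0.07), Rn45s (-0.67 ± 0.09), Ccar1 (-0.65 ± 0.09), Luc7l3 (-0.58 ± 0.07) and Golga4 (-0.57 ± 0.10). Klf13 lost the shared call without asenapine 3, and Golga4 without either asenapine value.

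All 13 genes on a list of cold-inducible and heat shock genes were tested. Of these 5 chaperone genes were lower, Cirbp was higher and 7 did not pass, beside 13.1% lower and 9.48% higher of all genes. The list had a median log2 difference of -0.37, beside 0.01 over all genes. The median was below 0 in 23 of 24 tissues, the eye being the exception at 0.10. Hsph1, which encodes the HSP70 co-chaperone HSP110, had asenapine values of -0.93 and -0.79 against -0.14 to 0.83 (median 0.10). Both were below every reference value. The difference was -1.07 ± 0.23 (limma adjusted p = 0.00759), with -1.0 without asenapine 3 and -1.14 without asenapine 4, where it missed the threshold (limma adjusted p = 0.110 and 0.0791). Hsph1 was lower in 23 of 23 tissues and called in 9, and in 17 tissues all asenapine libraries were below all reference libraries, beside 5.92% of all gene and tissue pairs. In spleen it stood at 21.6 and 26.1 CPM against 58.8 to 245 (median 80.9), and in liver at 15.1 and 26.2 CPM against 41.9 to 111. The testis values of 54.8 and 59.4 CPM lay inside the reference range of 39.0 to 70.0.

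The cytosolic chaperones Hsp90aa1 (-0.61 ± 0.15) and Hspa8 (-0.52 ± 0.14), the mitochondrial chaperonin Hspd1 (-0.37 ± 0.07) and the endoplasmic reticulum chaperone Hspa5 (-0.40 ± 0.07) were the other lower members. None of the 5 kept the call without each asenapine value in turn. The inducible HSP70 genes, which lie side by side and share nearly all their sequence so that reads may be split between them, did not pass: Hspa1b was at -1.12 ± 0.43 (limma adjusted p = 0.0770) and Hspa1a at -0.92 ± 0.45 (limma adjusted p = 0.15). Their reference values were wide, with Hspa1b between -0.62 and 1.57. The remaining heat shock members, named after their values were seen, did not pass either: the HSP40 gene Dnajb1 was at -0.30 ± 0.19, Hspe1 at -0.06 ± 0.12, the HSP70 co-chaperone gene Bag3 at 0.003 ± 0.11 and the small heat shock protein gene Hspb1 at 0.07 ± 0.22. In lung, where it passed, Hspa1b stood at 3.93 and 4.38 CPM against 16.0 to 143 (median 25.3). Outside the list, 3 genes of protein folding were among the named lower genes. Chordc1, an HSP90 co-chaperone, had -0.57 and -0.67 against -0.10 to 0.47 (median 0.16), a difference of -0.78 ± 0.13, and was lower in 24 of 24 tissues, but missed the threshold without asenapine 4 (limma adjusted p = 0.0570). Dnaja1, an HSP40 co-chaperone, differed by -0.77 ± 0.15, was also lower in 24 of 24 and missed the threshold without asenapine 3 or asenapine 4 (limma adjusted p = 0.0940 and 0.0647). Pdia4, a disulfide isomerase of the endoplasmic reticulum, had -0.76 and -0.81 against -0.05 to 0.66 (median 0.13), a difference of -0.98 ± 0.15 (limma adjusted p = 0.00130), and kept the call without either asenapine value.

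Promoters are shown for 4 of these genes chosen because they hold a searched motif, Cirbp and Sgk1 higher and Hsph1 and Chordc1 lower. Where a gene has several promoters, 1 with a match is shown. They run from 250 bases before to 50 after a RefSeq transcript start (GRCm38.p6), and capitals mark the motif found on either strand. The cold-responsive element was searched as TCCCCGCC or GGCGGGGA and occurs in 5.38% of 32851 RefSeq promoters. The heat shock element, either GAA, TTC and GAA or TTC, GAA and TTC in a row with NN between each, occurs in 0.603%, and the glucocorticoid response element, GAACA and TGTTC with NNN between them, in 0.0578%. The sequences are Cirbp at chr10:80167589-80167888 (plus strand, 1 of its 2 promoters), Sgk1 at chr10:21993640-21993939 (plus strand, 1 of 6), Hsph1 at chr5:149636287-149636586 (minus strand, 1 of 2) and Chordc1 at chr9:18292017-18292316 (plus strand).
Cirbp: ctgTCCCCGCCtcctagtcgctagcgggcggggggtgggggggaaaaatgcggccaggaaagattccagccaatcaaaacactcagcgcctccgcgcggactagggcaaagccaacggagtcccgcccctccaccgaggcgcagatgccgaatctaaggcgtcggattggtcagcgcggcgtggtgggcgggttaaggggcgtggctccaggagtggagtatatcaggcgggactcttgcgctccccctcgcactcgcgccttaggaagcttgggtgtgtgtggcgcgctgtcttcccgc
Sgk1: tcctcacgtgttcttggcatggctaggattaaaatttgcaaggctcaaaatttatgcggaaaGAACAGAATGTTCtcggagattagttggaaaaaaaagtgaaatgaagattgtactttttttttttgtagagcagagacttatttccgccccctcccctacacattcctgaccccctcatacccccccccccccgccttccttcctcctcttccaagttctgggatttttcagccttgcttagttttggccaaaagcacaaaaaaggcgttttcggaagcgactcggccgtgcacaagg
Hsph1: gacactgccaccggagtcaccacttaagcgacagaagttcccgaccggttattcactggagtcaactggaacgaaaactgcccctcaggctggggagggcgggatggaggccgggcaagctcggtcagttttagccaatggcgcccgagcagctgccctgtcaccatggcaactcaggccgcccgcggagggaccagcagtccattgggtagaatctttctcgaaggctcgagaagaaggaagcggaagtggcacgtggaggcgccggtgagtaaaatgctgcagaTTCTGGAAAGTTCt
Chordc1: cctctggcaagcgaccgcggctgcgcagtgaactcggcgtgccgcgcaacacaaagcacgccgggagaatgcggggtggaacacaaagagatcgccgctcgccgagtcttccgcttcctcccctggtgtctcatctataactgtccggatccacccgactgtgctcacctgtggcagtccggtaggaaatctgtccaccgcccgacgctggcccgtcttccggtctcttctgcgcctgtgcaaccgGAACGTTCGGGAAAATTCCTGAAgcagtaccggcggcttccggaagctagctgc
In Chordc1 the capitals hold 3 overlapping matches. Of the 15 named lower genes 12 had a promoter to search, and 2 of them (Hsph1 and Chordc1) held a heat shock element. The cold-responsive element was in 2 of these 12 lower genes as well (Dnaja1 and Thap2), and the glucocorticoid element in none. Of the 15 named higher genes, all with a promoter, none held a heat shock element, 3 held the cold-responsive element (Cebpb, Cirbp and Tmem98) and 1 the glucocorticoid element (Sgk1). A match describes the letters in this window and is not evidence of binding.

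Of the other named lower genes, Ipo7, a nuclear import receptor gene, had -0.77 and -0.92 against -0.06 to 0.55 (median 0.14), a difference of -1.06 ± 0.15 (limma adjusted p = 0.00125), and was lower in 20 of 21 tissues. In eye it fell to 1.26 and 1.47 CPM against 12 to 19.6 (median 15.2). Cenpj, a centriole assembly gene, differed by -0.90 ± 0.12, and the zinc finger genes Zmym1 by -0.76 ± 0.08 and Zfp62 by -0.75 ± 0.11. These 4 and Thap2 (-0.78 ± 0.10) kept the call without either asenapine value. Banp (-0.88 ± 0.19), Parp14 (-0.88 ± 0.14), the translation-associated helicase gene Dhx29 (-0.77 ± 0.13), Lrrc47 (-0.77 ± 0.24) and Utp14b (-0.74 ± 0.15) each missed the threshold without at least 1 of the asenapine values. Malat1, an abundant nuclear non-coding RNA, had -0.65 and -0.62 against -0.27 to 0.41 (median 0.26), a difference of -0.79 ± 0.15 (limma adjusted p = 0.00440). It was lower in 24 of 24 tissues and called in 13, but missed the threshold without asenapine 3 or asenapine 4 (limma adjusted p = 0.0837 and 0.0647). Its lurasidone values were nearest to asenapine, with a median of 1.12% of counts against 0.864% with asenapine and up to 1.65% with olanzapine.

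The remaining lists were described by their counts beside the 9.48% higher and 13.1% lower of all genes. Of 22 nuclear respiratory chain genes 10 were higher and none lower (median 0.19), led by Uqcrc1 (0.46 ± 0.15) and Cox4i1 (0.42 ± 0.12). Of 27 ribosomal protein genes 15 were higher and none lower (median 0.22), led by Rpl8 (0.32 ± 0.09) and Rpl41 (0.32 ± 0.07). These genes have short transcripts, and the shortest length quartile of all genes had a median difference of 0.11. None of the 25 kept the call when either asenapine value was left out in turn. Of 19 RNA binding and splicing genes 8 were lower and 2 higher (median -0.16). Besides Malat1, the lower members included Srsf7 (-0.38 ± 0.09), Clk1 (-0.31 ± 0.10), a kinase of splicing factors, and Rbm39 (-0.28 ± 0.07), and the higher ones were Hnrnpl (0.39 ± 0.13) and Srsf5 (0.26 ± 0.07). None of these 10 kept the call without each asenapine value in turn.

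Of 12 clock genes 4 were higher (median 0.17). Besides Per1 these were Tef (0.59 ± 0.19), Nr1d1 (0.56 ± 0.15), which encodes the heme receptor REV-ERB alpha, and Cry2 (0.37 ± 0.09). Of 9 immediate early genes 3 were higher: the phosphatase gene Dusp1 (0.64 ± 0.09), Nr4a1 (0.61 ± 0.12) and the mRNA decay factor gene Zfp36 (0.55 ± 0.13). Of 12 fatty acid synthesis genes 4 were higher, Thrsp (0.62 ± 0.18), Acly (0.38 ± 0.09), Acaca (0.35 ± 0.10) and Fasn (0.34 ± 0.09), and of 15 sterol synthesis genes only Fdft1 (0.38 ± 0.09). Of 12 interferon response genes 3 were lower, among them Ifit1 (-0.50 ± 0.12) and Rsad2 (-0.34 ± 0.09), and none higher (median -0.23). The proliferation genes Mki67 (-0.72 ± 0.12) and Top2a (-0.54 ± 0.18) were lower and Tk1 (0.31 ± 0.08) higher among 9 cell cycle genes. Of the called clock, immediate early, fatty acid, sterol, interferon and cell cycle genes, Per1 alone kept the call without each asenapine value in turn. The linker histone gene H1f0 (0.69 ± 0.09), the variant histone gene H3f3b (0.57 ± 0.07) and the p53 target Sesn1 (0.71 ± 0.10) were higher and kept the call without either asenapine value. None of 14 extracellular matrix genes was called (limma), 1 of them (Col3a1) being at an unadjusted p under 0.05.

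**Figure D4:**
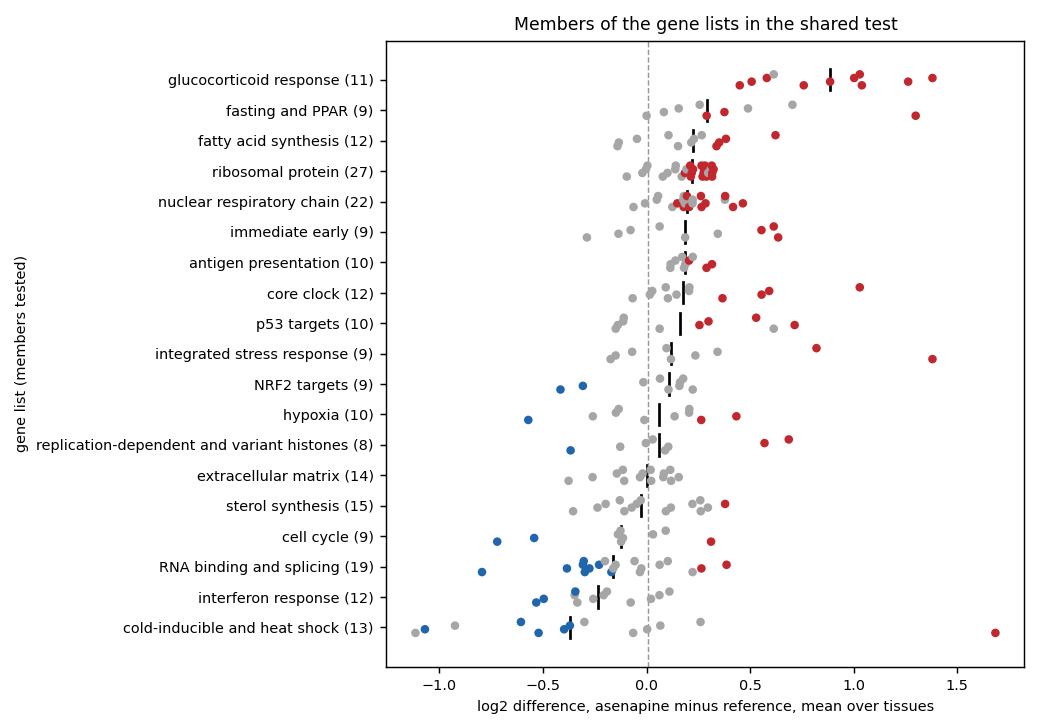
Log2 difference of asenapine minus the reference in the shared test for each tested member of 19 gene lists (number tested in brackets); red is called higher, blue called lower, grey not called, and black bars are list medians. The glucocorticoid list lies wholly right of 0, and the cold-inducible and heat shock list lies mostly left of 0 with Cirbp at 1.68.

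No receptor that asenapine is known to bind passed the filter in enough tissues for the shared test. In single tissues, 1 of 20 receptor and tissue pairs was called, beside 1.73% of all gene and tissue pairs. The dopamine receptor gene Drd4 was higher in eye, 125 and 135 CPM against 47.4 to 80.3 (median 67.5), a log2 fold change of 0.98 ± 0.16 (edgeR adjusted p = 0.0122). It missed the threshold without asenapine 3 or asenapine 4 (edgeR adjusted p = 0.296 and 0.124). None of the 5 receptor genes tested in brain was called.

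The reference drugs were then taken 1 at a time. These comparisons share the asenapine values. Asenapine differed from alendronate by 3429 genes, from risedronate by 3168, from lurasidone by 2347 and from olanzapine by 4361 (limma, adjusted p under 0.05), so the lurasidone comparison gave the fewest. All 30 named genes passed in each of the 4 comparisons. They had been named by their separation from these same reference values, so this is not a separate test. The same test run for each other drug against the remaining 4, with asenapine in the reference, called no gene for alendronate, risedronate or lurasidone (638, 547 and 423 genes at an unadjusted p under 0.05) and 874 for olanzapine (10.9%). Cirbp in those tests was at -0.16 for alendronate, -0.41 for risedronate, -0.53 for lurasidone and -0.58 for olanzapine, with limma adjusted p from 0.403 to 0.942. For genes in which asenapine stood apart, such as Cirbp, its values widened the spread of the reference and shifted its mean. The counts and p-values of these tests therefore cannot be set against those of the asenapine test.

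The pituitary gland did not enter the shared test, since its asenapine libraries carry numbers 1 and 3. None of its libraries entered the shared calls, though the pituitary sign counted as 1 of the tissues in the same-sign share by which genes were named. Number 3 may come from the same animal as number 3 elsewhere, which the labels do not say. Of the 759 shared higher genes 689 were tested there and 597 were higher, and of the 1051 shared lower genes 983 were tested and 893 were lower, while of all 7282 genes 3485 were higher. All 14 named higher genes tested were higher (6 called) and all 15 named lower genes were lower (3 called), beside 0.487% of genes called in this tissue. Of the 16 genes eligible for naming in pituitary gland 14 lost the call without asenapine 3, and Cirbp kept it throughout. Of 8 further called members of the lists or named genes, 4 lost it without asenapine 3 and H3f3b kept it throughout. Cirbp stood at 191 and 193 CPM against 35.5 to 63.0 (median 48.5), a log2 fold change of 1.98 ± 0.18. Hsph1 stood at 90.1 and 97.7 CPM against 117 to 274 (median 209), and Fkbp5 at 178 and 244 CPM, which overlapped the reference range of 122 to 214. The pituitary hormones growth hormone, prolactin, Tshb, Lhb and Cga were not called, nor were Pomc (1.01 ± 0.32, edgeR adjusted p = 0.169) and Fshb (-0.61 ± 0.16, edgeR adjusted p = 0.0739).

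Brain is the tissue with asenapine numbers 1 to 4. Cirbp was at 63.5, 84.6, 53.1 and 68.9 CPM in asenapine 1 to 4 and at 12.9 to 42.9 (median 25.2) in the reference libraries. Txnip was at 53.6, 69.0, 59.5 and 50.1 CPM against 16.4 to 27.9 (median 20.8). All 4 libraries lay above the reference for both genes. Hsph1 was at 127, 119, 137 and 164 CPM against 171 to 228 (median 179), below the reference in all 4. With all 4 libraries 516 of 7997 genes were called (6.45%), 184 higher and 332 lower. These calls rest mostly on asenapine 1 and 2, since asenapine 3 and 4 alone against the same reference gave 4 calls among genes of the shared test and asenapine 1 and 2 alone 560. Asenapine 1 and 2 also differed from asenapine 3 and 4 by 160 genes (1.95%, 68 higher and 92 lower). By the naming rule, the largest rises in brain included Unc5a, a netrin receptor gene (1.46 ± 0.26), Txnip (1.45 ± 0.17), Cirbp (1.41 ± 0.21), Tprn (1.40 ± 0.22), the proton-gated channel gene Asic2 (1.29 ± 0.21) and the G-protein gamma subunit gene Gng13 (1.14 ± 0.21). Among lower genes were the receptor gene Lrp1b (-1.25 ± 0.33), Utp20 (-1.20 ± 0.34), Sclt1 (-1.15 ± 0.26) and the kinase gene Cit (-1.06 ± 0.21). Txnip, Cirbp, Tprn, Asic2 and Gng13 kept the call whichever single library number was left out.

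Over the 24 tissues edgeR made 3464 calls in 199669 gene and tissue pairs (1.73%), 1603 higher and 1861 lower. The parotid gland had the most, 629 of 6329 genes (9.94%), followed by brain, lung with 407 (4.37%), thymus with 295 (3.42%), aorta with 249 (3.15%) and thyroid gland with 210 (2.25%). Testis had 189 calls (1.93%), 178 of them lower, and eye 176 (1.83%). Adrenal gland had 124 (1.37%), spleen 110 (1.28%), jejunum 102 (1.08%), heart 98 (1.43%), liver 96 (1.43%) and skeletal muscle 77 (1.14%). Kidney had 57 (0.661%), pancreas 41 (1.3%), white fat 23 (0.249%) and skull 9 (0.103%). At the other end were colon with 5 (0.053%), stomach with 4 (0.0452%), bone marrow with 2 (0.0264%), ileum with 1 (0.0108%) and skin with 0, where 650 genes had an unadjusted p under 0.05 (edgeR). Without asenapine 3 the total was 957 and without asenapine 4 it was 1035. A count of calls does not compare the tissues: the direct test of a tissue against the mean of the other tissues called 284 genes over 23 tissues, 200 of them in parotid gland (3.41%), 25 in pancreas (0.836%), 16 in testis (0.248%), 13 in liver (0.221%), 10 in lung (0.13%) and 6 in aorta (0.084%). The remaining calls were 4 in thyroid gland (0.0511%), 3 in skeletal muscle (0.0491%), 2 in brain (0.0312%), 2 in colon (0.0257%) and 1 each in eye (0.0134%), kidney (0.0137%) and spleen (0.0137%). It called none in skin, ileum, stomach, bone marrow, jejunum, heart, skull, adrenal gland, thymus or white fat, where 285 to 1122 genes had an unadjusted p under 0.05 (limma). The edgeR interaction, which takes libraries as independent, ranked the tissues differently: it called 222 genes in parotid gland, 141 in jejunum, 115 in thyroid gland, 87 in pancreas, 55 in liver, 41 in skin, 36 in aorta, 8 each in adrenal gland and thymus, and 2 in testis.

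**Figure D5:**
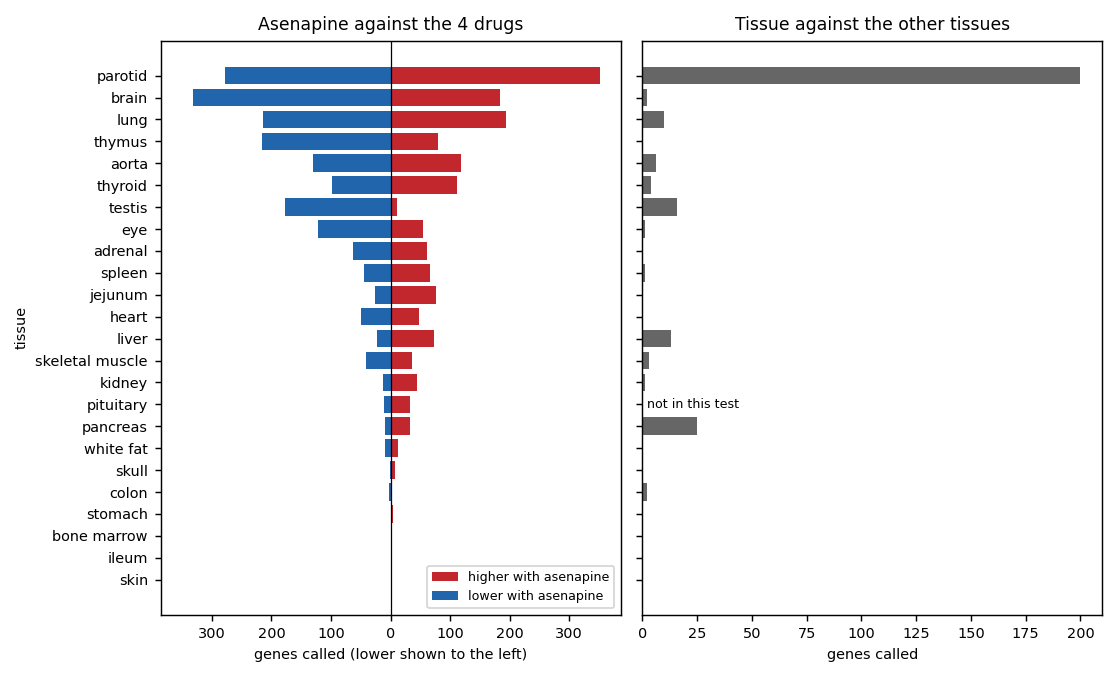
Genes called per tissue by edgeR (left; red higher, blue lower with asenapine) and by the limma test of each tissue against the mean of the others (right; the pituitary gland was not in this test). The parotid gland leads both panels with 629 and 200 genes, while brain has 516 on the left and 2 on the right.

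In the parotid gland, the salivary gland in front of the ear, 8 genes of the secretoglobin and exocrine gland-secreted peptide families, which encode small secreted proteins, were at or near 0 with asenapine and abundant in all reference libraries. Their summed level was at most 36.4 CPM with asenapine and 75947 to 152888 CPM in the reference. Scgb1b24 had 0 counts against 8238, at least 890-fold lower (against 3 counts over the group). Scgb2b2 had 17 counts against 253852, and Scgb1b20, Scgb2b24, Scgb1b3, Scgb2b20, Esp15 and Esp16 had 1 to 12 counts against 19623 to 173810. Near-identical copies within these families may share reads. The parotid markers Bpifa2 (270197 and 274661 CPM against 177617 to 241545) and Amy1, an amylase gene (36761 and 46065 CPM against 23665 to 38638), were abundant in all 10 libraries. Among other salivary genes examined, Lpo was lower with asenapine, 601 and 648 CPM against 834 to 1436. Smr3a, Dcpp1, Prpmp5 and Prb1 were above all reference libraries, and the rest overlapped them. Among the 36 parotid libraries of the series, 28 held over 10000 CPM of the 8 genes and 6 held under 1000: 2 of asenapine, 2 of Dox, 1 of Sofosbuvir and 1 of Sucrose. A low level was thus also seen in libraries of other groups, and the part of dissection in it was not tested.

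The same asenapine parotid libraries were higher in energy metabolism. Of 22 nuclear respiratory chain genes 19 were called higher, beside 5.55% of all genes in this tissue, and 6 of them kept the call without any single replicate number (Atp5b, Cox5a, Cox7c, Sdhb, Uqcrc1 and Uqcrq). Of 13 fatty acid synthesis genes 9 were higher, 6 of which kept the call, and Scd2 was lower, with Fasn at 1434 and 1767 CPM against 236 to 749 (median 520). Of 9 immediate early genes 7 were higher, led by Atf3 (3.64 ± 0.56) and Egr1 (2.43 ± 0.44), and these with Dusp1 and Jun kept the call. Also higher were the chemokine gene Cxcl1 (4.07 ± 0.52), the matricellular gene Cyr61 (4.0 ± 0.60), the lipid transporter gene Mfsd2a (3.63 ± 0.54) and the thyroid hormone deiodinase gene Dio2, 72.7 and 74.2 CPM against 5.69 to 39.9. The summed level of 5 brown fat markers, of which Dio2 is 1, was 1135 and 1266 CPM with asenapine against 309 to 610 in the reference (none at 0 with asenapine), and that of 4 adipocyte markers 213 and 234 CPM against 133 to 208, with 1 marker at 0. Over the 24 tissues, the brown fat sum lay above all reference libraries in 3 (parotid gland, heart and skin). The adipocyte sum lay above them in 1 and below them in 1. Of all gene and tissue pairs 5.68% were separated upward and 5.92% downward. The part of fat cells in the parotid result was not tested. In the direct test against the other tissues, the sulfotransferase gene Chst1 differed by -4.15 ± 0.23, Fmo5 by -4.02 ± 0.32, the oxidase gene Qsox1 by -2.98 ± 0.24 and the ascorbate transporter gene Slc23a1 by -2.84 ± 0.33. Higher there were Egr1 (2.18 ± 0.32), Fbxo21 (2.1 ± 0.34) and the coactivator gene Ppargc1a (1.82 ± 0.26), another of the brown fat markers. Of the 10 genes named by this test 8 kept the call without any single value.

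The pancreas, liver and testis differed from the rest in other ways. In pancreas, Rgs2, a regulator of G-protein signalling, differed from the other tissues by 2.89 ± 0.49 (2.70 in pancreas and -0.19 elsewhere), the glucocorticoid-list gene Errfi1 by 2.19 ± 0.41, the cytochrome P450 reductase gene Por by 2.14 ± 0.29 and the antiproliferative gene Btg2 by 1.93 ± 0.41, all higher. Lower were Casp9 (-2.13 ± 0.36), Fbxw2 (-1.74 ± 0.31) and Sae1 (-1.53 ± 0.24). In liver, Arrdc3, another arrestin-domain gene, differed by -3.18 ± 0.48, being -2.64 in liver and 0.54 in the mean of the other tissues. Fbf1 (2.63 ± 0.42), the receptor gene Tnfrsf1b (1.95 ± 0.32), the lipolysis inhibitor gene G0s2 (1.92 ± 0.35) and the kinase gene Sik1 (1.72 ± 0.32) were higher in liver than elsewhere. In testis the 9 named higher genes tested had a median log2 fold change of 0.17, 6 were above 0 and none was called, against medians of 2.0 in liver and 1.90 in pancreas. Ddit4 differed from the other tissues by -1.51 ± 0.25 (-0.06 in testis, 1.45 elsewhere), Cirbp by -1.45 ± 0.23 (0.30 and 1.75) and Mt2 by -1.38 ± 0.21 (-0.05 and 1.32; limma adjusted p = 0.0362 for all 3). None of the genes named in pancreas, liver or testis kept the call when asenapine 3 and asenapine 4 were each left out.

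In lung, Ddit4 was higher at 257 and 353 CPM against 48.2 to 87.8 (median 67.6), as were Ramp3, a receptor-activity modifier (2.13 ± 0.30), Lmcd1 (1.95 ± 0.27), Csrnp1 (1.86 ± 0.24) and the sphingosine kinase gene Sphk1 (1.77 ± 0.23), and the planar polarity gene Prickle1 was lower at 32.1 and 35.4 CPM against 68.3 to 144 (-1.70 ± 0.25). These genes kept the call without any single library number. Of 13 cold-inducible and heat shock genes in lung 7 were lower, beside 2.3% of all genes in lung, and none of the 7 kept the call when each replicate number was left out in turn. In thymus, besides Cirbp, the proapoptotic gene Bmf was higher at 60.7 and 63.3 CPM against 13 to 25.9 and the RNA-binding gene Mex3a lower at 27.1 and 33.0 CPM against 88.3 to 118, and only these 3 of 16 named genes kept the call throughout. In aorta the nuclear receptor gene Nr4a2 was higher at 256 and 303 CPM against 30.3 to 115 (2.58 ± 0.27) and Rgs2 lower at 164 and 182 CPM against 411 to 980 (-1.85 ± 0.30). Ppargc1a was also higher there (2.28 ± 0.47), while the summed brown fat markers overlapped, 10476 and 11982 CPM against 6230 to 11300. Rgs2 and Ppargc1a lost the call without asenapine 3 or asenapine 4, and of the 16 genes eligible in aorta Nr4a2 and Fbxo21 kept it throughout. The summed level of 5 macrophage markers was also higher in aorta, 209 and 234 CPM against 97.4 to 194 (none at 0 with asenapine). Aorta was the 1 of 24 tissues in which this sum lay outside the reference range. The part of macrophages in the aorta result was not tested. In thyroid gland Txnip, Cirbp and Wisp1, 855 and 999 CPM against 140 to 369 (1.90 ± 0.23), were higher and kept the call throughout. Dio2 was higher in thyroid gland as well, 51.9 and 203 CPM against 5.89 to 37.0, and lost the call when single libraries were left out. The summed brown fat markers, which include Dio2, were at 464 and 1561 CPM there against 216 to 805 (none at 0 with asenapine), and 7 skeletal muscle markers at 168 and 869 CPM against 195 to 16093 (median 12180). The 5 T cell markers were lower, 1.27 and 4.08 CPM against 5.22 to 658 with 3 at 0, and the 6 B and plasma cell markers higher, 16.4 and 17.7 CPM against 7.17 to 15.3 with 2 at 0. Over the 24 tissues, the T cell sum lay below all reference libraries in 1, and the B and plasma cell sum above in 1 and below in 1. The part of the brown fat, muscle, T and B cells in the thyroid result was not tested.

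In single tissues, 25 genes of the shared test were called in both directions in different tissues. Chosen after their values were seen, Arrdc3 ran from -3.18 in liver to 1.5 in spleen, Rgs2 from -1.85 in aorta to 2.71 in pancreas, and Nr4a2 from -2.12 in skeletal muscle to 2.58 in aorta, and neither Rgs2 nor Nr4a2 was called in the shared test (limma adjusted p = 0.609 for Rgs2 and 0.967 for Nr4a2). In the pituitary gland the edgeR interaction called 5 genes, all higher there than in the other tissues: the immediate early gene Ier3 (2.26), Slc23a2 (1.28), Dclk1 (1.26), Zswim6 (1.01) and Mat2a (0.82).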

How the data were processed

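Gene read counts were deposited by the authors as 1 table per tissue, unnormalised and with gene symbols. Per the submitters' processing notes, bcl2fastq 2.17, TopHat2 2.1.1, HTSeq 0.9.1 and the mm10 build were used; strand settings are not given in the sources used here. Groups and replicate numbers came from the labels, and no column lacked a sample. The labels do not say that replicates were separate mice, so p-values measure the spread between these samples, which may be technical. The 5 drugs, the members and the 22 gene lists were chosen with earlier results of these data known.

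Total counts ran from 469166 to 1877620 per library. Each tissue was tested with edgeR 4.0.16 (R 4.3.3, TMM scaling, filterByExpr with a minimum count of 10, quasi-likelihood F test), 2 asenapine libraries (4 in brain) against 8 pooled reference libraries, with Benjamini-Hochberg adjustment and a threshold of 0.05. The shared test used limma 3.58.1 with trended empirical Bayes on 10 values per gene. Each was the mean over tissues of centred log2 CPM (TMM scaling, prior count 2), for genes passing the filter in at least 12 of 23 tissues. The tissue test took, within drug and number, the tissue minus the mean of the other tissues. The pituitary gland was tested only by an edgeR interaction in a joint fit. Scripts were tested on simulated data. Alternatives included DESeq2 1.42.0, other scalings, filters and references, and leaving out each replicate.

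Named shared genes were called, had the same sign in at least 75% of tissues and both asenapine values outside the reference range, and were the 15 with the largest difference in each direction. That rule fixes their direction and separation. Per tissue, the 8 largest in each direction among separated calls with a mean of at least 5 CPM were eligible in the tissues with most calls, brain and pituitary gland, and for the tissue test the 5 largest in each direction in 4 tissues. List members past the threshold could be named. Gm and Rik symbols were not named. Positions follow GENCODE M21, in which 23376 of 24421 symbols were found, and promoters follow RefSeq. A fold against 0 counts used a floor of 3 counts over the group. Mitochondrially encoded genes were not analysed here. The values of 1 interferon response gene are not reported here.

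Replicate numbers were not treated as pairs in the main tests. Across tissues, libraries with the same drug and number deviated together little, with a median correlation of 0.009 to 0.029 per drug. This correlation was taken within each drug. It therefore cannot decide whether a number pairs libraries of different drugs, and that was not tested.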

Additional observations from a re-analysis of the deposited data

Results flagged for a closer look

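The level of single libraries was examined in 177 groups of 4 to 10 libraries, and in 6 of them 1 library stood apart by Dixon's criterion, which chance gives in about 5% of groups. Levels are in log2 CPM. Olanzapine 2 was the library apart for 3 genes. In thymus it had Txnip at 7.25 (the others 8.65 to 9.20) and Lrrc47 at 6.89 (5.05 to 5.88), and in aorta Nr4a2 at 6.88 (5.06 to 5.83). In parotid gland Gmpr was at 1.13 in alendronate 1 (2.57 to 3.75 in the others). In brain Gng13 was at 3.22 in olanzapine 1 (4.44 to 5.27), and in thyroid gland Dio2 was at 3.14 in risedronate 2 (4.56 to 5.32).

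The asenapine difference of a tissue differed from the mean difference of the other tissues for 32 named genes by limma, in log2 units. In parotid gland the higher genes were Gmpr (2.20), Egr1 (2.18), Fbxo21 (2.1), Ppargc1a (1.82) and Fabp3 (1.61), and the lower genes were Chst1 (-4.15), Fmo5 (-4.02), Qsox1 (-2.98), Slc23a1 (-2.84) and Lcmt1 (-2.80). In pancreas the higher genes were Rgs2 (2.89), Errfi1 (2.19), Por (2.14), Btg2 (1.93) and Snord89 (1.77), and the lower genes were Casp9 (-2.13), Fbxw2 (-1.74), Fam133b (-1.54), Sae1 (-1.53) and Pura (-1.43). In testis Herc6 was higher (1.11), and Ddit4 (-1.51), H2-Eb1 (-1.47), Cirbp (-1.45), Mt2 (-1.38) and Rnf103 (-1.30) were lower. In liver Fbf1 (2.63), Tnfrsf1b (1.95), G0s2 (1.92), Sik1 (1.72) and Atp1b1 (1.60) were higher and Arrdc3 was lower (-3.18). In pituitary gland the edgeR interaction gave Ier3 (2.26), Slc23a2 (1.28), Dclk1 (1.26), Zswim6 (1.01) and Mat2a (0.82).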

How the results depend on the processing

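No single gene followed under these settings changed the sign of its difference. For counts, the side with more calls did change under some settings. The shared test had 759 higher and 1051 lower genes, while both joint fits below had more higher than lower genes. Calls over tissues were 1603 higher and 1861 lower, and 5703 and 5489 with all 18 groups in 1 fit. Both asenapine numbers carried the counts: leaving out 1 replicate number at a time gave 957 to 4359 calls over tissues (3464 in full), 98 to 2035 shared genes (1810 in full), 35 to 570 genes of 1 tissue against the others (284 in full, 68 without asenapine 3, 35 without asenapine 4 and 570 without risedronate 2), and 41 to 294 genes between the brain asenapine pairs (160 in full; 69 without asenapine 1, 41 without asenapine 2 and 294 without asenapine 3). The choice of reference moved the counts as well. Fitting the 5 drugs as groups gave 11309 calls over tissues and 4035 shared genes, and all 18 groups in 1 fit gave 11192 calls. Against the bisphosphonates only the counts were 7797 and 3215, and against lurasidone and olanzapine only 5855 calls over tissues. Chosen after seeing the data, single reference drugs gave 3429 shared genes against alendronate, 3168 against risedronate and 4361 against olanzapine. Joint fits that took libraries as independent gave 4679 shared genes with edgeR (2587 higher, 2092 lower), 4763 with DESeq2 (2715 higher, 2048 lower) and 770 genes for the tissue interaction. DESeq2 gave 51 genes between the brain asenapine pairs. The cause was not tested. Without Rn45s reads, an alternative also chosen after seeing the data, 1833 shared genes were called, and without the parotid gland 1780. With the replicate block in brain, where numbers are shared by asenapine and the reference, the calls over tissues were 3452. No other paired analysis was possible because asenapine and the reference share fewer than 2 numbers outside brain. Depth limits genes at a few CPM, where 1 library holds only a few reads.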
